A study of Mus musculus and Homo sapiens with 8 samples.

Results

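The immunoglobulin genes described here are the antibody gene segments of the deposited mouse expression table. They were chosen by name and annotated gene type, with earlier results of these data known. The rule took symbols starting with Ighv, Igkv or Iglv, constant regions of the heavy, kappa and lambda chains, and Jchain. Of 13359 distinct genes in the table, 195 met the rule. They comprise 93 heavy-chain V segments, 87 kappa V segments, 3 lambda V segments, 7 heavy constant regions, 1 kappa constant region, 3 lambda constant regions and Jchain. RefSeq's table for GRCm38.p6 names 183 Ighv and 162 Igkv segments, 120 and 102 of them functional. Those outside the deposited table were not analysed here.

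An antibody joins a heavy chain to a kappa or lambda light chain. Each developing B cell cuts and joins V, D and J segments of the heavy locus, and V and J segments of a light locus, so that it carries its own pair of V regions, and its descendants inherit them. The constant region sets the antibody class. In the wall of the small intestine most plasma cells, the antibody-secreting end stage of B cells, make IgA, which the J chain links into dimers that the epithelium carries into the gut lumen. The V segments read in a tissue thus come from the B cell and plasma cell clones it held.

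The RNA-seq libraries, 2 in each of 2 groups, came from small intestinal crypt cells of untreated C57BL/6 mice aged 2 months. All mice carried the allele written APCmin+, a mutation of the tumour suppressor Apc that causes intestinal tumours. The controls carried that allele alone, and the other group has the genotype label APCmin+; Zmynd8IEC-/-, a deletion of the chromatin reader Zmynd8 in intestinal epithelial cells whose Cre or promoter the labels do not name. Each library held RNA pooled from 3 mice, so a library's V segments are those of 3 mice together, and p-values measure only the spread between these pools. Values are in FPKM (reads relative to gene length and to library size), a unit inferred from the deposited numbers, and are given in the order control 1, control 2, labelled knockout 1 and labelled knockout 2.

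Zmynd8 itself, the gene named in the label, had levels of 6.94 and 4.73 FPKM in control libraries and of 7.30 and 7.65 FPKM in those labelled knockout. It was not lower in the latter, with a log2 fold change of 0.33 (SE 0.18, n = 2 and 2) and a limma adjusted p of 0.293. This whole-gene level cannot test the labels, since a deletion may be partial or may not remove the whole transcript. Every direction below therefore rests on the labels alone. Library totals ran from 44718091 to 48778712 reads, and immunoglobulin genes held 0.683%, 0.859%, 0.826% and 0.674% of them. The median count of an immunoglobulin gene in a library was 241.5 reads, and 3 of the 195 genes had no read in at least 1 library. The epithelial marker Epcam stood at 1195, 1315, 989 and 976 FPKM, against 2880, 3685, 3745 and 3015 FPKM for Igha, so antibody RNA was abundant in all 4 crypt preparations beside that of epithelium. In bulk RNA, fewer cells of a type and less RNA per cell cannot be told apart.

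Antibody RNA was high in every library, and its total per chain did not separate the groups. Summed over the segments of a class, heavy V RNA was at 2694, 4151, 3087 and 3079 FPKM. Kappa V RNA was at 2539, 3465, 2809 and 2446 FPKM. In both classes control 2 was the highest library and the other 3 libraries lay closer together. The J chain, which joins IgA monomers, was at 375, 406, 441 and 309 FPKM, with the labelled knockout libraries at both ends of the range. The log2 ratio of labelled knockout to control sums was -0.15 for heavy V, -0.19 for kappa V, 0.05 for lambda V, 0.04 for heavy constant, -0.08 for kappa constant, 0.28 for lambda constant and -0.06 for Jchain. After median-ratio scaling of the libraries the sign turned for heavy V (0.01), kappa constant (0.09) and Jchain (0.11). The lambda constant ratio was 0.04 without control 1, 0.07 without labelled knockout 1 and 0.58 without control 2. Exact two-sided permutation tests over the 4 libraries gave p-values from 0.667 to 1.0 for these 7 sums, all 1.0 after Benjamini-Hochberg adjustment, where 2 against 2 cannot go below 0.333.

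**Figure D1:**
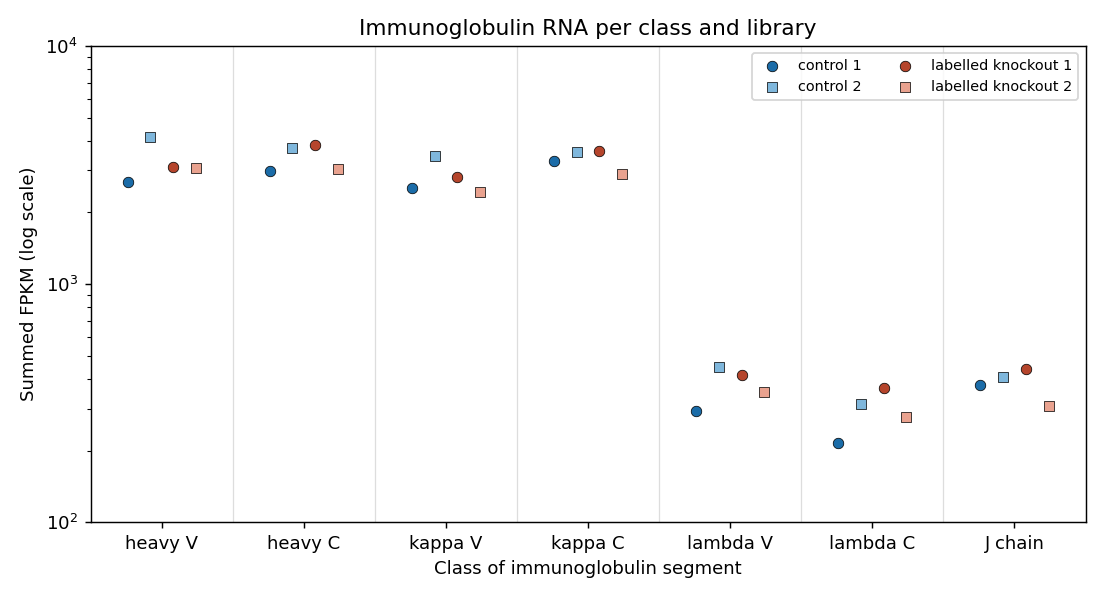
Summed FPKM of each immunoglobulin class (x axis) in the 4 libraries on a log axis, 1 point per library, in blue for the controls and red for the libraries labelled knockout. Heavy and kappa V sums were highest in control 2, at 4151 and 3465 FPKM, and the groups overlap in every class.

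Nearly all heavy constant RNA was that of IgA. Igha, the IgA heavy chain, was at 2880, 3685, 3745 and 3015 FPKM, which is 96.7%, 99.1%, 97.8% and 99.2% of all heavy constant FPKM. Its groups overlap, with a log2 fold change of 0.04 (SE 0.20) and an adjusted p of 0.899 (limma). Igkc, the kappa constant region, was at 3300, 3601, 3619 and 2896 FPKM, with a log2 fold change of -0.09 (SE 0.17, limma adjusted p = 0.754). The V and constant sums of a chain stayed within reach of each other: the heavy V sum over the heavy constant sum was 0.905, 1.12, 0.806 and 1.01, and the kappa V sum over Igkc was 0.769, 0.962, 0.776 and 0.845. Jchain over Igha was 0.130, 0.110, 0.118 and 0.102.

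The other heavy constant regions were low, and 4 of the 6 were ordered by replicate number, not by genotype label. Ighm, the IgM heavy chain, was at 27.9, 11.03, 23.8 and 7.98 FPKM. Ighd, the IgD heavy chain of naive B cells, was at 5.30, 0.814, 6.18 and 1.84 FPKM. Ighg1 and Ighg2b, IgG heavy chains, were at 14.9, 1.87, 11.5 and 1.90 FPKM and at 40.1, 16.4, 38.0 and 11.4 FPKM. In these 4 genes both replicate 1 libraries were above both replicate 2 libraries, so the 2 genotype groups overlap, and their limma adjusted p ran from 0.782 (Ighd) to 0.944 (Ighg1). Without Igha the heavy constant sum was 96.9, 34.8, 83.0 and 24.2 FPKM. Of 19 B cell markers, 10 were listed: Ms4a1, Cd79a, Cd79b, Cd22, Fcrla, Spib, Cd37, Vpreb3, Fcmr and Ly6d. All 10 had both replicate 1 libraries above both replicate 2 libraries, beside 14.0% of all genes. By genotype label limma called 0 of the 10, and 0 had an unadjusted p under 0.05. Their summed level was 63.5, 21.9, 42.2 and 15.7 FPKM, of which Ly6d alone gave 31.1, 6.88, 7.15 and 4.89 FPKM. Ms4a1, which encodes CD20, a surface protein of B cells that plasma cells mostly lack, was at 3.06, 0.658, 3.38 and 0.365 FPKM. Fcmr, a receptor for IgM, was at 2.07, 0.179, 1.81 and 0.126 FPKM. The T cell list summed to 181, 287, 210 and 185 FPKM and did not have that order. The part of B cell content in the isotype levels was not tested.

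**Figure D2:**
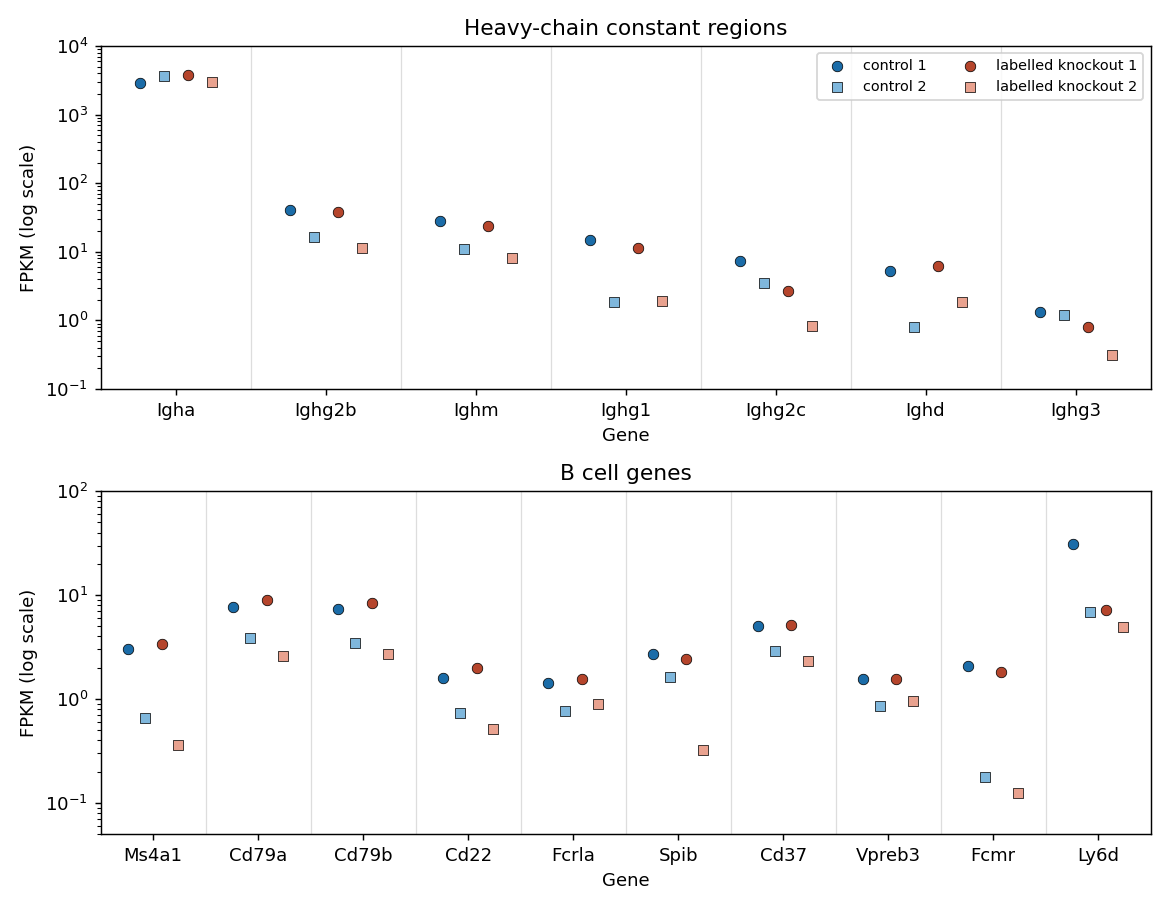
FPKM of the 7 heavy constant regions (top) and of 10 listed B cell markers (bottom) in each library, on log axes, with circles for replicate 1 and squares for replicate 2. Replicate 1 of each group lies above replicate 2 for Ighm, Ighd, Ighg1, Ighg2b and each of these 10 markers, whatever the genotype label.

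Ighg2c and Ighg3, the remaining IgG heavy chains, were the only constant regions whose groups did not overlap, while 48.5% of all genes had both labelled knockout values below both controls. Ighg2c was at 7.37, 3.48, 2.69 and 0.828 FPKM, lower in both labelled knockout libraries (log2 fold change -1.24, SE 0.50, limma adjusted p = 0.221). Ighg3 was at 1.30, 1.19, 0.805 and 0.312 FPKM, also lower in both (log2 fold change -0.55, SE 0.20, limma adjusted p = 0.172). Neither passed the threshold of 0.05 on the adjusted p.

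Lambda chains made up a small share of light chains. Lambda V segments were 10.3%, 11.5%, 12.9% and 12.6% of light-chain V FPKM, and lambda constant regions 6.13%, 8.01%, 9.21% and 8.73% of light-chain constant FPKM. Both labelled knockout libraries were above both controls in each measure, the most a 2 against 2 comparison can show (exact permutation test, two-sided p = 0.333 each). Iglv1 carried most lambda V RNA, at 239, 434, 392 and 334 FPKM, or 81.6%, 96.3%, 94.4% and 94.7% of it. Control 1 stood apart through Iglv2, at 45.4 FPKM against 8.58, 16.2 and 13.4, so that Iglv2 made up 15.5% of lambda V there and 1.90% to 3.90% elsewhere. Iglv3 was at 8.42, 7.89, 6.87 and 5.25 FPKM. Iglc1, the constant region next to the J segment that Iglv1 mostly uses, was at 155, 262, 319 and 228 FPKM. Iglc2 and Iglc3 share much sequence, so their counts may be split between them: Iglc2 was at 30.8, 30.8, 35.2 and 27.3 FPKM and Iglc3 at 29.3, 20.7, 13.4 and 22.1 FPKM. No lambda constant region was past the threshold (limma adjusted p of 0.447, 0.970 and 0.358).

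Heavy V use spread over many segments, with a few dominating. Ighv1-26 was the largest segment in control 1 and in both labelled knockout libraries, at 324, 438, 380 and 386 FPKM, or 12.02%, 10.6%, 12.3% and 12.5% of heavy V FPKM. Its share stayed within 10.6% and 12.5%, and its log2 fold change was 0.02 (SE 0.18, limma adjusted p = 0.942). Ighv1-81 was the largest in control 2, at 243, 481, 161 and 132 FPKM, above both labelled knockout libraries in both controls (log2 fold change -1.23, SE 0.37, limma adjusted p = 0.157). Ighv1-39 was at 200, 190, 95.9 and 66.5 FPKM, higher in both controls, with a log2 fold change of -1.28 (SE 0.19, limma adjusted p = 0.0714). Ighv1-19, another member of the large Ighv1 family, was at 91.7, 160, 88.3 and 120 FPKM with overlapping groups.

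Among kappa V segments the leader changed between pools. Igkv1-110 led in control 1 with 10.3% of kappa V FPKM, Igkv1-117 in control 2 with 19.0% and in labelled knockout 1 with 8.57%, and Igkv10-96 in labelled knockout 2 with 8.12%. Igkv1-117 was at 240, 658, 241 and 171 FPKM, with control 2 high and the groups overlapping. Igkv1-110 was at 260, 313, 151 and 117 FPKM, higher in both controls (log2 fold change -1.09, SE 0.17, limma adjusted p = 0.0737). Igkv10-96 was at 213, 314, 203 and 199 FPKM, with control 2 high and the other 3 libraries close together. Igkv6-23 was at 130, 165, 185 and 142 FPKM, with overlapping groups.

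Control 2 had the most concentrated V use of the 4 libraries, but not the fewest segments. Segments at 1 FPKM or more numbered 83, 85, 85 and 88 for heavy V and 78, 77, 73 and 80 for kappa V. The effective number of segments, the inverse Simpson number, which is the count of equally used segments that would give the same concentration, was 25.1, 18.8, 29.3 and 28.1 for heavy V. For kappa V it was 25.0, 13.1, 25.5 and 29.5. The controls were below the labelled knockout libraries in both chains (exact permutation test, two-sided p = 0.333 each, the smallest possible), but by amounts that rest largely on control 2. Without segments annotated as pseudogenes the kappa V groups no longer separated (p = 0.667, exact permutation test). The mean difference was 6.77 for heavy V and 8.42 for kappa V with all libraries, 3.63 and 2.46 without control 2, and 9.91 and 14.4 without control 1. The 5 largest segments held 36.1%, 44.7%, 30.7% and 32.2% of heavy V FPKM and 36.5%, 53.7%, 34.9% and 32.9% of kappa V FPKM. Counting error is small beside these gaps: the 95% Wilson interval of a heavy or kappa share of reads reached at most 0.329 percentage points either way, and covers counting error only.

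The libraries of a group differed in V segment levels far more than in levels of other genes. Among segments with a mean of at least 5 FPKM, the median fold difference between the 2 controls was 1.73 for 74 heavy V segments and 2.19 for 64 kappa V segments, against 1.11 for 7681 other genes. Between the labelled knockout libraries it was 1.46, 1.39 and 1.07. More than 2-fold differences between the controls were found for 41.9% of heavy V and 56.2% of kappa V segments, and for 2.38% of other genes. These folds compare levels, not shares, so differences in class sums enter them. Heavy V sums were 2694 and 4151 FPKM in the controls and 3087 and 3079 FPKM in the labelled knockout libraries. Shared use, the sum over segments of the smaller of a pair's 2 shares, was highest for the labelled knockout pair, at 81.1% for heavy V and 82.2% for kappa V. It was 68.0% and 67.5% for the control pair. Control 1 shared 74.2% to 77.1% with the labelled knockout libraries, more than with control 2. Control 2 shared 58.7% to 63.4% with them, the lowest values of all pairs.

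**Figure D3:**
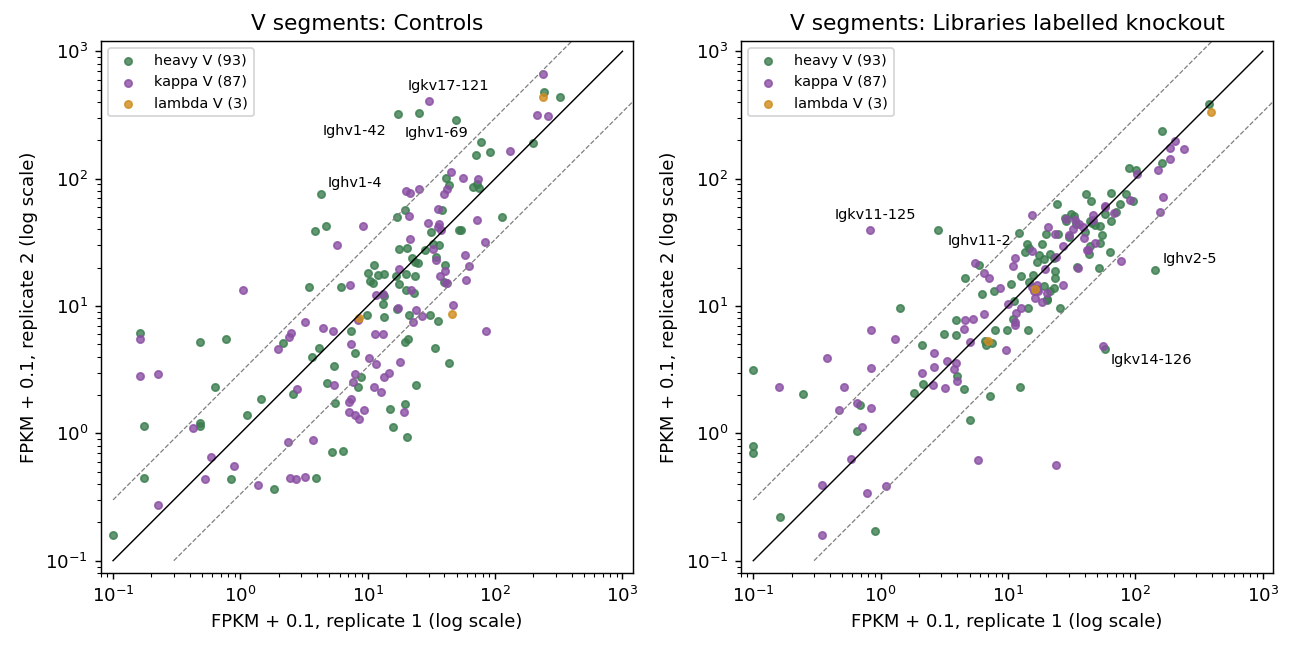
Each point is a V segment, its FPKM + 0.1 in replicate 1 (x axis) and replicate 2 (y axis) of the controls (left) and of the libraries labelled knockout (right), on log axes with lines of equality (solid) and of 3-fold difference (dashed). The controls scatter further from equality (median fold 1.73 for heavy V and 2.19 for kappa V) than the labelled knockout libraries (1.46 and 1.39).

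Part of that spread lay in segments high in 1 library. A rule set after the values were seen counted segments at 5 FPKM or more in a library and at least 3 times higher there than in each other library. It held for 24 of 164 V segments (14.6%), and for 1.67% of all genes at that level. By library, heavy V gave 2, 6, 2 and 3 such segments and kappa V 5, 3, 2 and 1. In control 2 the heavy ones were Ighv1-69, Ighv1-42, Ighv5-17, Ighv1-4, Ighv1-61 and Ighv5-2, named because they met this rule. Ighv1-69 was at 25.3, 327, 24.6 and 36.6 FPKM, Ighv1-42 at 17.2, 323, 18.9 and 23.1, and Ighv5-17 at 49.6, 286, 57.9 and 53.1. The 6 segments summed to 1056 FPKM, or 25.5% of heavy V FPKM in control 2, against 3.71%, 3.87% and 4.11% in the other libraries. In kappa V the 3 segments high in control 2 (Igkv17-121, Igkv12-98 and Igkv4-90) summed to 453 FPKM, or 13.1%, against 1.46%, 1.36% and 1.04%. Igkv17-121 gave most of it, at 30.4, 409, 35.2 and 19.8 FPKM. The rule picked both sets for being high in control 2, so the gaps in their summed shares follow from that choice and test nothing.

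The other libraries had their own segments under the same rule. In labelled knockout 1, Ighv2-5 stood at 143 FPKM against 13.0, 10.2 and 19.1, and Igkv14-126, annotated as a pseudogene in the table, at 55.7 FPKM against 13.0, 5.92 and 4.72. In labelled knockout 2, Ighv11-2 stood at 39.2 FPKM against 8.24, 2.21 and 2.74, and Igkv11-125 at 39.6 FPKM against 1.27, 0.290 and 0.730. Ighv11-2 paired with Igkv14-126 is a known receptor of B-1 cells, a lineage that makes natural antibodies, but the 2 segments were high in different libraries here. In control 1, Ighv2-6-8 stood at 23.7 FPKM against 2.31, 0.806 and 0.0711, and Igkv3-7 at 19.1 FPKM against 1.37, 3.83 and 3.48. Whether 1 mouse of a pool or several carried such a segment cannot be told apart. Within the labelled knockout pair, Ighv2-5 also had the largest gap in heavy V share, 4.03 percentage points, while in the controls Iglv1, Iglv2 and Igkv17-121 had gaps of 14.7, 13.6 and 10.6 percentage points.

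**Figure D4:**
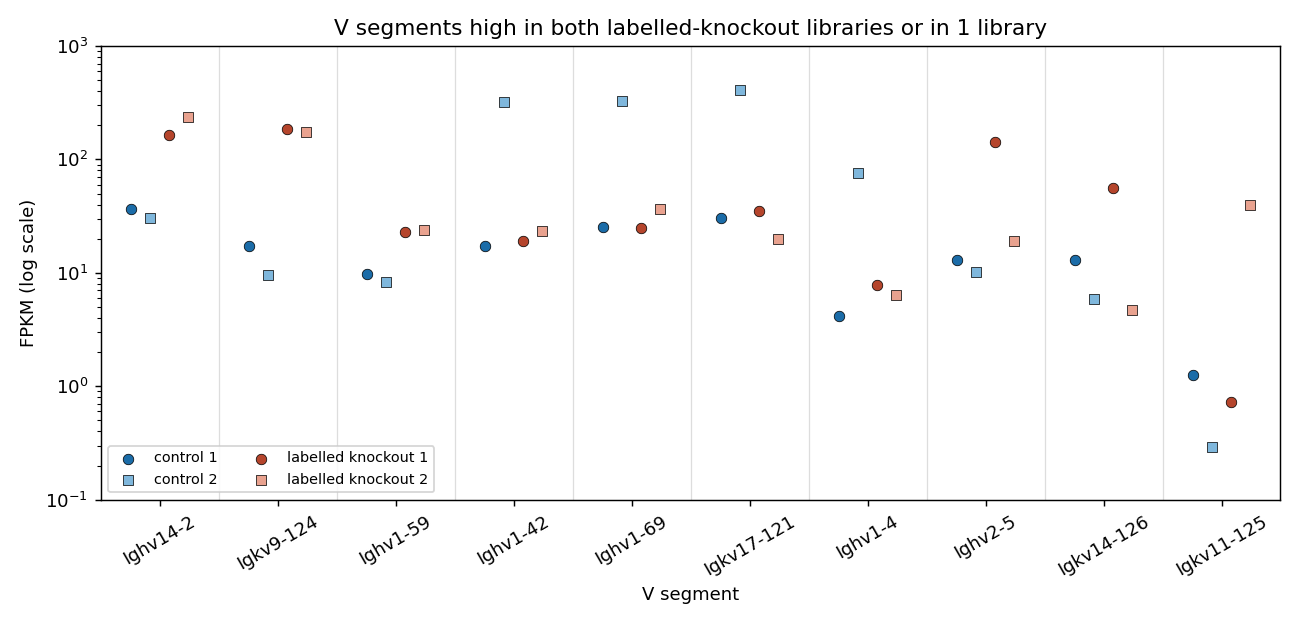
FPKM, on a log axis, of 10 V segments high in both labelled knockout libraries or in 1 library, 1 point per library. Igkv17-121, Ighv1-42 and Ighv1-69 reach 323 to 409 FPKM only in control 2, and Ighv14-2 and Igkv9-124 are high in both labelled knockout libraries.

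Few immunoglobulin genes passed the test of the genotype label. Of 186 immunoglobulin genes tested, limma called 3 higher in the labelled knockout libraries and 0 lower at an adjusted p under 0.05, and 24 higher and 15 lower at an unadjusted p under 0.05 (all genes 7.49% and 19.1%). The 3 calls are 1.61%, beside 0.726% of all 12948 genes tested (0.595% higher and 0.131% lower). All 3 were V segments. Without a filter on low values, with a 5 FPKM filter, with a replicate block, or without either labelled knockout library, limma called 0, and without control 1 or control 2 it called 15 and 23. Of the 186, 40 (21.5%) had both labelled knockout values above both controls, beside 14.9% of all genes, and 24 (12.9%) had both below, beside 48.5%. These shares move with scaling: after median-ratio scaling 53 (28.5%) of the immunoglobulin genes were above, beside 28.2% of all genes, and 20 (10.8%) were below, beside 3625 of all 12948 genes.

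Across the 174 V segments tested, 108 had a positive log2 fold change and 66 a negative one, with a median of 0.28. Each segment counts alike here, whatever its level, and segments share the 4 libraries. The V sums had log2 ratios of -0.15 for heavy, -0.19 for kappa and 0.05 for lambda, so the segment median is not the change in total V RNA. All 12948 genes had 3669 positive and 9279 negative, with a median of -0.15. With median-ratio scaling, which shifts the median of all genes by 0.147 on the log2 scale, the V segments had 115 and 59, with a median of 0.39.

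The 3 called segments were Igkv9-124, Ighv14-2 and Ighv1-59. Igkv9-124, a kappa segment at chr6:67942076-67942540 (mm10 per the processing notes, minus strand), stood at 17.3, 9.58, 186 and 175 FPKM. Both labelled knockout libraries were far above both controls, with a log2 fold change of 3.70 (SE 0.29, 95% interval 2.91 to 4.50, n = 2 and 2) and an adjusted p of 0.0417 (limma). Its share of kappa V FPKM was 0.680%, 0.276%, 6.605% and 7.14%. Ighv14-2, a heavy segment at chr12:113994469-113994898 on the minus strand, was at 36.4, 30.1, 163 and 238 FPKM. Again the groups do not overlap, with labelled knockout libraries above controls by 2.54 on the log2 scale (SE 0.22, 95% interval 1.96 to 3.11, limma adjusted p = 0.0417). Its share of heavy V FPKM was 1.35%, 0.726%, 5.27% and 7.74%. Ighv1-59, a less abundant heavy segment, was at 9.84, 8.34, 23.0 and 23.8 FPKM (log2 fold change 1.28, SE 0.11, limma adjusted p = 0.0417). Over 12 alternatives the adjusted p ran from 0.00643 to 0.345 for Igkv9-124 (past the threshold in 7), from 0.0372 to 0.256 for Ighv14-2 (in 6) and from 0.027 to 0.283 for Ighv1-59 (in 5). At 3 times or more in both labelled knockout libraries over both controls stood 3 V segments, Igkv9-124, Ighv14-2 and Ighv1-37, of the 164 at 5 FPKM or more in a library, beside 0.555% of all genes at that level. The plasma cell list, summed, was at 812, 827, 786 and 611 FPKM, and without Jchain at 437, 421, 345 and 302 FPKM, lower in both labelled knockout libraries. The largest members of the latter sum were Txndc5, at 109, 105, 80.0 and 71.7 FPKM, and Xbp1, at 103, 108, 99.7 and 94.8 FPKM. Of the 18 listed, 8 had both labelled knockout values below both controls and 0 above, beside 48.5% and 14.9% of all genes. Groups overlapped for the rest of the list: Jchain, Mzb1, Prdm1, Irf4, Tnfrsf17, Tnfrsf13b, Derl3, Pou2af1, Creld2 and Ly6c2. A difference in plasma cell number was not tested.

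Other segments were far apart on average but did not pass. Ighv1-37 was at 0.0761, 0.349, 4.46 and 16.4 FPKM, with a log2 fold change of 3.02 and a limma adjusted p of 0.121. Ighv3-5 was at 5.16, 0.617, 12.6 and 17.1 FPKM, with groups that did not overlap. Igkv11-125, with the fifth largest positive log2 fold change, 2.29, owes it to labelled knockout 2, at 39.6 FPKM. On the lower side the largest negative log2 fold changes were those of Ighv2-6-8 (-2.70), Igkv17-121 (-2.05), Igkv12-38 (-1.82), Ighv1-42 (-1.81) and Igkv12-98 (-1.75). Igkv17-121 and Ighv1-42 rest on control 2 alone: labelled knockout 1 and 2 and control 1 were within 19.8 to 35.2 and 17.2 to 23.1 FPKM. Igkv12-38 was at 4.38, 6.56, 0.619 and 1.02 FPKM, the only V segment of the 164 at least 3 times higher in both controls than in both labelled knockout libraries (beside 0.301% of all genes), and its limma adjusted p was 0.0538.

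The authors' deposited table gives q-values under 0.05 for 22 of the 195 genes (11.3%, beside 2.13% of all genes), 10 higher and 12 lower (all genes 1.26% and 0.876%). In 8 of them 1 library was at least 3 times each other library, in 8 the groups overlapped, and limma also called 2. The authors' deposited table gives Igkv17-121 a q of 1.36e-34 and Ighv1-42 a q of 8.19e-27, both high only in control 2. It gives 2.27e-35 to Igkv9-124 and 4.1e-28 to Ighv14-2, where both labelled knockout libraries are high. No source used here names the test behind these q-values.

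Segment families, which share sequence, were used in unequal amounts. The Ighv1 family, with 48 listed segments, held 70.1%, 76.8%, 59.9% and 56.6% of heavy V FPKM. Ighv14 held 3.21%, 1.41%, 6.75% and 9.85%, Ighv2 held 3.42%, 1.74%, 7.22% and 5.12%, and Ighv5 held 5.72%, 10.4%, 8.54% and 7.85%. In kappa V, Igkv1 held 24.0%, 29.3%, 16.4% and 15.6% and Igkv9, which has Igkv9-124, held 2.13%, 0.956%, 8.01% and 8.90%. Ighv1 and Igkv1 were lower, and Ighv14, Ighv2 and Igkv9 higher, in both labelled knockout libraries, but for all 35 families the exact permutation p was at least 0.333 (at least 0.613 after Benjamini-Hochberg adjustment). Many other families also separated the groups. Ighv6, Ighv7, Ighv8, Ighv10, Ighv13, Igkv6, Igkv13, Igkv14 and Igkv19 were higher in both labelled knockout libraries. Ighv15, Igkv10, Igkv15, Igkv17 and Iglv3 were lower in both. Shares of a class add up to a fixed whole, so those of its families do not move independently. In the labelled knockout libraries the called Ighv14-2 (1.35%, 0.726%, 5.27% and 7.74%) and Igkv9-124 (0.680%, 0.276%, 6.605% and 7.14%) held most of the Ighv14 and Igkv9 shares. Copies within a family are near-identical in stretches, and no source used here says how reads matching several copies were counted, so levels of single copies are uncertain.

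V segments lie in tandem away from the joining segments, and use was spread along both loci. Heavy V segments in the table lay from 148.7 kb (Ighv5-2) to 2570 kb (Ighv1-85) from the joining cluster. The nearest of 3 equal groups of segments held 19.3%, 18.0%, 28.1% and 30.6% of heavy V FPKM, the middle group 44.1%, 41.6%, 39.8% and 40.0% and the farthest 36.6%, 40.4%, 32.1% and 29.4%. The nearest group was higher, and the farthest lower, in both labelled knockout libraries. Single segments weigh on this. The nearest group holds Ighv14-2 (1.35%, 0.726%, 5.27% and 7.74% of heavy V FPKM) and Ighv2-5 (0.482%, 0.246%, 4.65% and 0.619%). It also holds Ighv5-17, high in control 2 (1.84%, 6.89%, 1.88% and 1.72%). Any part of position itself was not tested. Across 93 segments Spearman's rho between distance and mean level was 0.137, a description of segments that share libraries. Kappa V segments lay from 18.39 kb (Igkv3-1) to 3166 kb (Igkv2-137). The farthest group held 49.7%, 63.4%, 49.7% and 47.2% of kappa V FPKM, so control 2 was the library apart, and rho was 0.00131 over 87 segments. Kappa V segments lie on both strands, joined by inversion or deletion according to strand. The 34 on the plus strand held 47.2%, 53.5%, 35.4% and 36.6% of kappa V FPKM, more in both controls. Single segments weigh here too. The plus strand holds Igkv1-117 (9.43%, 19.0%, 8.57% and 7.01%), Igkv1-110 (10.3%, 9.03%, 5.38% and 4.801%) and Igkv17-121 (1.198%, 11.8%, 1.254% and 0.808%). It also holds Igkv14-126 and Igkv11-125, each high in 1 labelled knockout library. The minus strand holds the called Igkv9-124 (0.680%, 0.276%, 6.605% and 7.14%). Any part of strand itself was not tested.

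**Figure D5:**
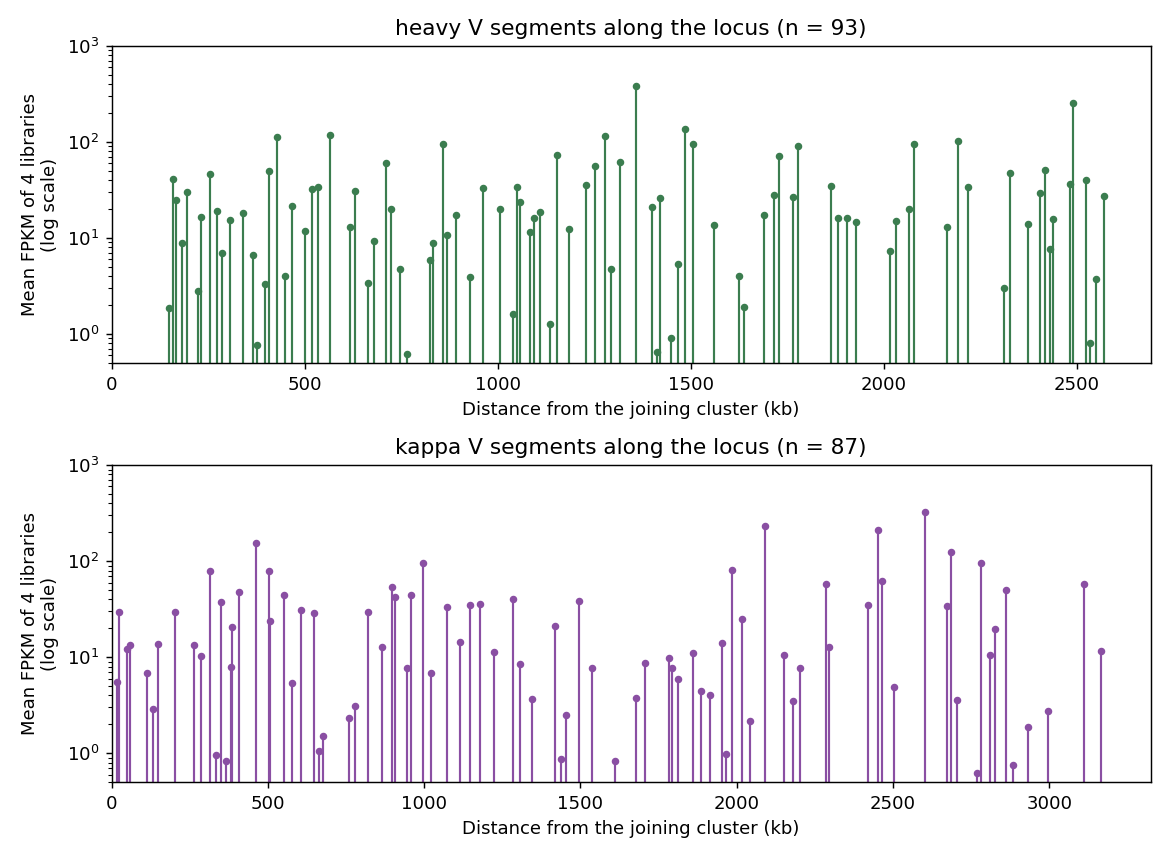
Mean FPKM over the 4 libraries, on a log axis, of each heavy (top) and kappa (bottom) V segment against its distance in kb from the joining cluster. Segments along both loci were read, and Ighv14-2 lies 564.6 kb and Igkv9-124 2780 kb from the joining cluster.

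The plasma cell list, chosen for plasma cell identity and secretion, had 18 of 20 members listed and tested, Jchain among them. Of these, 4 had positive and 14 negative values of the log2 fold change (median -0.09, beside -0.15 over all genes), and after median-ratio scaling the counts were 12 and 6. Limma called 1 lower and 0 higher at an adjusted p under 0.05, beside 0.131% and 0.595% of all genes. At an unadjusted p under 0.05, 4 were lower and 0 higher, beside 19.1% and 7.49% of all genes. The 1 gene was Cd38, an ectoenzyme not confined to plasma cells, at 53.7, 60.9, 26.2 and 21.1 FPKM (log2 fold change -1.24, SE 0.14, limma adjusted p = 0.046). The call was lost with median-ratio scaling, without the low-value filter and with a replicate block. Mzb1, a chaperone of antibody secretion, was at 7.72, 9.25, 9.26 and 6.59 FPKM. Xbp1, the factor that drives the secretory program, was at 103, 108, 99.7 and 94.8 FPKM. Sdc1, which encodes CD138 and is also made by epithelium, was at 65.8, 50.3, 40.9 and 26.2 FPKM (limma adjusted p = 0.167).

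Genes by which epithelium carries IgA or recruits B cells included 13 of 15 listed, all tested, 8 with positive and 5 with negative log2 fold changes. Limma called 0 of them, and 1, lower, had an unadjusted p under 0.05, beside 19.1% of all genes lower. Pigr, the receptor that carries dimeric IgA across the epithelium, was at 771, 1057, 1130 and 1186 FPKM, higher in both labelled knockout libraries but not past the threshold (log2 fold change 0.36, SE 0.19, limma adjusted p = 0.278). Ccl25, the chemokine that draws IgA plasma cells to the small intestine, was at 192, 242, 276 and 262 FPKM (limma adjusted p = 0.242). Tnfsf13b, the survival factor BAFF, was at 6.97, 6.71, 5.14 and 4.39 FPKM (limma adjusted p = 0.122). Limma called 0 genes in the T cell, myeloid, stroma and endothelium, and epithelium lists, where 0, 2, 0 and 4 genes, all lower, had an unadjusted p under 0.05, beside 19.1% of all genes lower.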

How the data were processed

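The authors' deposited table gives 1 value per gene and library for 4 RNA-seq libraries, in FPKM, a unit read from the values since the file headers name none. Its log2 fold change and q-value (authors' p-value adjustment) columns are deposited, per the file headers, without a named test. The submitters' processing notes name HISAT2 and mm10, without roles or versions. No source used here gives the counting tool, the handling of multiply mapped reads or any use of strand. The 4 ChIP-seq libraries of the series were not analysed here. Of 13527 entries, 168 exact repeats were dropped. Whole reads were recovered for 13359 of 13359 genes within 0.002 reads, and 195 of 195 members. On simulated data this step was tested and gave back 99.0% of 195 members exactly.

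limma 3.58.1 in R 4.3.3 was run on log2(FPKM + 1) with a variance trend, genotype as its only term, for 12948 genes with at least 1 FPKM in 2 or more libraries. P-values were adjusted by Benjamini-Hochberg, with a threshold of 0.05. The residual degrees of freedom were 2. Shares are of the class FPKM within a library. Sums, family shares and effective numbers were compared by exact permutation test over libraries, and the rule on segments high in 1 library was set after the values were seen. Named genes were Jchain, the constants, the 5 highest V segments per class and the largest per library, the 5 largest changes in each direction and those past the threshold, segments whose share differed most within a group, list members, and segments at the ends of the loci. The members and lists were chosen with earlier results of these data known. No column of per-sample values was left unused (0). Same-numbered libraries deviated together with r = 0.0452 over all genes and 0.0596 over members. For B cells, 1 marker of the list is not reported here and was left out of its counts and sums, for a reason unrelated to its values.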

Additional observations from a re-analysis of the deposited data

How the results depend on the processing

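Alternatives were run on the number of genes called, the class sums, the effective numbers, the gene lists and 23 single genes, and not on family, position, strand or lambda shares, shared use, spread within groups or the rule on segments high in 1 library. The number of immunoglobulin genes called, 3 in the report, was 0 with no filter on low values, 0 with a mean of 5 FPKM, 0 with a replicate block, 2 without the trend, 2 with limma-voom on the recovered reads, and 3 with a pseudocount of 0.1, median-ratio or quantile scaling. Leaving out 1 library gave from 0 to 23, and the lone sample of an arm is then assumed to vary like the other group. The replicate block, the number as a term, therefore moved the count from 3 to 0. The labels do not say that a number marks a shared litter or day, and same-numbered libraries deviated with r = 0.0452 over all genes. Both replicate 1 libraries were above both replicate 2 libraries in 14.0% of all genes and below them in 5.04%. Whether the number marks something shared was not tested. The plasma cell list had 0 calls under median-ratio scaling, 0 with no filter and 0 with the replicate block. Class sums changed sign for heavy V (0.01424 on the log2 scale), kappa constant (0.08649) and J chain (0.108) under median-ratio scaling, and for lambda V (-0.751), heavy constant (-0.2963) and lambda constant (-0.1869) without the largest segment. Without 1 library the sums ran from -0.429 to 0.195 for heavy V, -0.399 to 0.050 for kappa V, -0.232 to 0.392 for lambda V, -0.140 to 0.206 for heavy constant, -0.253 to 0.069 for kappa constant, 0.038 to 0.581 for lambda constant, and -0.339 to 0.174 for J chain. The difference in the effective number of lambda V segments ran from -0.332 to 0.039. Single genes that changed sign without a library: Jchain -0.337 to 0.175, Igha -0.133 to 0.222, Ighg2b -1.113 to 0.544, Ighm -1.053 to 0.415, Ighg1 -1.403 to 1.067, Ighd -0.481 to 1.316, Igkc -0.252 to 0.070, Iglc2 -0.170 to 0.188 and Ighv1-42 -3.887 to 0.271. Under median-ratio scaling Jchain was 0.09445 and Igkc 0.08529. The cause was not tested. Counting error limits the lowest V segments.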

Other observations

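Joining segments, which are not in the rule's list, were read at low depth, from 1 to 123 reads each. Ighj4 took 60.4%, 42.7%, 54.7% and 41.4% of heavy joining FPKM in control 1, control 2, labelled knockout 1 and labelled knockout 2, and Igkj5 was at 33.0, 54.5, 43.5 and 42.8 FPKM.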
